A study of Sparassis latifolia with 12 samples.

Results

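Day 24 of cold storage was compared with day 8 in fruiting bodies of Sparassis latifolia, the cauliflower mushroom, using 6 of the 12 RNA-seq libraries of a storage series, 3 from day 24 (group D) and 3 from day 8 (group B). The 3 day 0 libraries (group A) gave the level from which storage started, and the 3 day 16 libraries (group C) served as a second stored time point. Every group was the cultivated strain Minxiu No.1, picked at 1 producer, packed in oriented polypropylene film and kept at 4 ℃, so strain, packing and cold were common to day 24 and day 8 and by design they differed in the length of storage. Each time point was sampled as 3 replicates, which the methods do not describe as separate packages or fruiting bodies, and the p-values therefore reflect only how much these libraries vary, which may be technical variation. For every transcript that changed, the day 24 level was also placed relative to the day 0 mean.

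A picked mushroom keeps respiring and ages, drawing on its reserves as it loses water, softens and browns. Ergosterol is the main sterol of fungal membranes, and fungi short of oxygen can ferment pyruvate to ethanol through pyruvate decarboxylase and alcohol dehydrogenase. Long non-coding RNAs (lncRNAs) are transcripts without a recognised protein product, some of which act on neighbouring genes (in cis) or on distant ones (in trans).

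Values are FPKM (fragments counted per transcript, scaled to transcript length and to the mapped fragments of the library), listed for 13103 mRNAs and 1003 lncRNAs and here divided by a factor per library that was between 0.983 and 1.02. Transcripts reaching 1 FPKM in 3 or more libraries were tested (10962 mRNAs and 1002 lncRNAs) with limma on log2(scaled FPKM + 1), in 1 fit of all 12 libraries, and DE transcripts had an adjusted p under 0.05 and a log2 change of at least 1 in either direction. Log2 changes on this scale understate the change of weakly expressed transcripts. Most mRNAs and all lncRNAs carry only an identifier, so their products are not given here.

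The libraries themselves were unequal. Day 24 libraries listed 11480, 11133 and 12789 mRNAs above 0, against 11056, 11010 and 11005 in day 8 libraries, and 950, 914 and 995 lncRNAs, against 851, 825 and 853. Day 24 replicate 3 therefore stood apart from both other day 24 libraries, near the 12636 to 12886 mRNAs of day 0. Read counts per transcript are not used here, but steps between low FPKM values gave a rough relative depth. It was 0.901 to 1.01 for the day 24 libraries and 1.01 to 1.55 for the day 8 libraries. By the study's own numbers, every day 8 library had more clean reads than every day 24 library. Whether depth bears on the numbers listed above 0 was not tested. Sequencing statistics given with the study (base error rate and bases per read) place day 24 beside day 0 and day 8 beside day 16, and the share of uniquely aligned reads was lower on days 8 and 24 than on days 0 and 16. Storage time and these sequencing differences cannot be told apart.

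Between day 24 and day 8, 2590 mRNAs were DE (23.6% of those tested), of which 1419 were higher (12.9%) and 1171 lower (10.7%) on day 24. The median log2 change was 1.52 among the higher mRNAs and −1.41 among the lower ones, and the median over all tested mRNAs was 0.01. A change of at least 2 on the log2 scale was reached by 392 higher and 174 lower mRNAs, and one of at least 4 by 40 and 9. The 3 day 24 libraries did not overlap the 3 day 8 libraries in 2525 of the 2590 (97.5%). Over all tested mRNAs, 26.8% lay wholly above and 26.7% wholly below day 8.

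Of the lncRNAs, 368 were DE (36.7%), 232 higher (23.2%) and 136 lower (13.6%) on day 24, with median log2 changes of 2.41 and −1.55. The day 24 and day 8 libraries did not overlap in 351 of the 368 (95.4%), where 27.9% of all tested lncRNAs lay wholly above and 21.2% wholly below day 8. The whole lncRNA table was shifted, with a median of 0.29 over all tested lncRNAs, and the split depended on scaling. With quantile normalization within the class the median became −0.09, and 128 lncRNAs were higher and 140 lower. The median lncRNA level relative to the median mRNA level was 0.534 ± 0.119 on day 24 and 0.390 ± 0.1002 on day 8 (log2, SD, n = 3 each), a difference of 0.144 that did not pass a two-sided exact permutation test (p = 0.2, smallest possible 0.1). Of the 232 higher lncRNAs, 27 were listed at 0 in every day 8 library, and the median change of the other 205 was 2.297. These 27 were 25% of the 108 tested lncRNAs at 0 in every day 8 library, near the 23.2% higher among all tested lncRNAs. At 0 on day 8 a lncRNA can only be called higher, so this is not a free comparison.

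Most DE transcripts were nearer to the day 0 mean on day 24 than on day 8, 1972 of the 2590 mRNAs (76.1%) and 277 of the 368 lncRNAs (75.3%). A transcript was placed short of day 0 when its day 24 mean lay between the day 8 and day 0 means, past day 0 when it had crossed the day 0 mean, and away from day 0 when it had moved in the other direction. These positions come from the group means and were not tested. Among DE mRNAs, 912 were short of day 0 (35.2%), 1463 past it (56.5%) and 215 away from it (8.30%). Among DE lncRNAs, 123 were short (33.4%), 225 past (61.1%) and 20 away (5.43%). Of the 1463 mRNAs past day 0, 615 were DE against day 0 on neither day 8 nor day 24, as were 85 of the 225 lncRNAs. For these, a departure from day 0 that was then crossed is not established. All 912 mRNAs and 123 lncRNAs short of day 0 were DE against it on day 8, which the choice of transcripts nearly fixes. Their day 8 distance from day 0 is by definition at least as large as their DE change by day 24. The day 8 libraries enter the comparison with day 24 and that with day 0, so error in the day 8 mean moves both the same way, and these counts are descriptions.

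**Figure D1:**
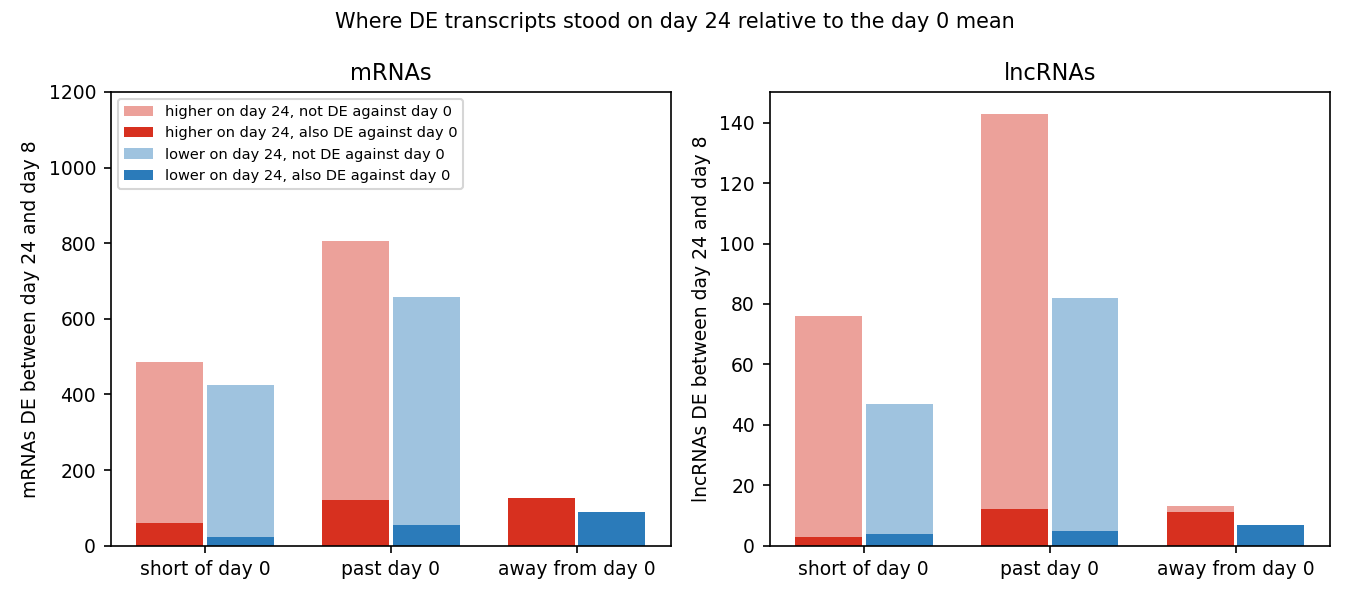
Number of mRNAs (left) and lncRNAs (right) DE between day 24 and day 8, by position of the day 24 mean relative to the day 0 mean; red bars are transcripts higher on day 24, blue bars transcripts lower on day 24, and the dark part of each bar counts those also DE between day 24 and day 0. Past day 0 was the most frequent position in both classes, with 806 higher and 657 lower mRNAs. Of these, 121 (15.0%) and 55 (8.37%) were DE against day 0, where 6.66% of all tested mRNAs were DE above and 6.80% below day 0. Both sets lie on a fixed side of day 0 by definition, so these shares are not a free comparison. Of the 1463 mRNAs past day 0, 615 were DE against day 0 on neither day 8 nor day 24.

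The distance from day 0 was smaller on day 24 than on day 8 in both classes. Of the 2590 DE mRNAs, 1414 (54.6%) were within 0.5 of the day 0 mean on the log2 scale on day 24, and the median distance from day 0 was 0.45 on day 24 and 1.29 on day 8. Between day 24 and day 0, 471 of them (18.2%) were DE, against 13.5% of all tested mRNAs. Of these 471, 214 were among the 215 mRNAs that had moved away from day 0, for which the choice of transcripts nearly fixes that call. The 18.2% is therefore not a free comparison with the 13.5%. For lncRNAs, 146 of 368 (39.7%) were within 0.5 of day 0, and the median distance was 0.64 on day 24 and 1.69 on day 8. Of the 368, 42 (11.4%) were DE between day 24 and day 0, 18 of them among the 20 that moved away, against 10.3% of all tested lncRNAs. The shares within 0.5 have no share over all tested transcripts beside them, so they are descriptions and do not measure a return.

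By direction, the 487 mRNAs that were higher on day 24 and short of day 0 still lay below it by a median of 0.36 (log2 difference −0.36), and the 806 that had passed it lay above by 0.51. The 425 lower mRNAs short of day 0 remained 0.29 above it, and the 657 past it had a median difference of −0.42. These median distances compare with a median standard error of 0.257 for mRNAs. The mRNAs that moved away were the exception in size, with median day 24 minus day 0 differences of 2.32 for the 126 higher ones and −2.16 for the 89 lower ones. A DE transcript that moved away from day 0 almost always differs from day 0 by more than the threshold, as the construction requires, and 214 of the 215 were DE against day 0.

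**Figure D2:**
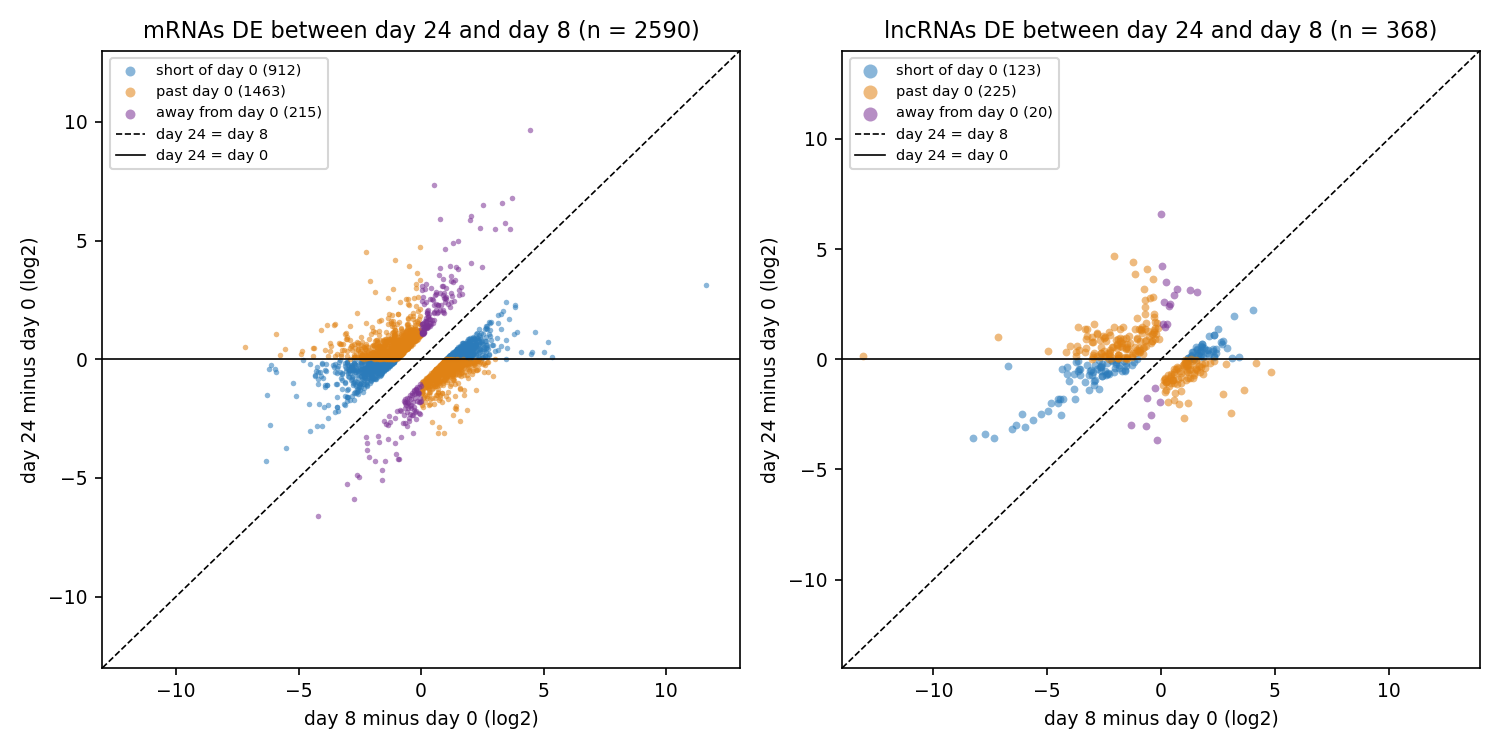
Log2 difference from day 0 on day 24 (vertical) and on day 8 (horizontal) for every mRNA (left, n = 2590) and lncRNA (right, n = 368) DE between day 24 and day 8, coloured by position; points on the solid line are at the day 0 mean on day 24 and points on the dashed line would not have changed since day 8. Most points lie in a band along the solid line, with median distances from it of 0.45 for mRNAs and 0.64 for lncRNAs.

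The size of the return was measured on transcripts chosen without the day 24 minus day 8 change. Day 24 libraries still entered the filter and the spread estimate of the fit. Of the mRNAs, 3340 were DE between day 8 and day 0 (30.5%), 1845 having fallen (16.8%) and 1495 risen (13.6%) by day 8, and for each the share of that change undone was calculated, where 0 is the day 8 mean and 1 the day 0 mean. The median share over the 1845 mRNAs that had fallen was 0.625, 0.642 and 0.714 in the 3 day 24 libraries, and over the 1495 that had risen it was 0.656, 0.743 and 0.691. In the day 16 libraries the same medians were 0.034, 0.086 and 0.012 for the mRNAs that had fallen and −0.042, 0.031 and −0.016 for those that had risen. Every day 24 library lay above every day 16 library in both sets. The day 8 and day 0 means enter both the choice of transcripts and the share, so error in these means affects both.

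On the means of 3 libraries, the mRNAs that had fallen had undone a median of 0.638 of their change and those that had risen 0.703. Of the fallers, 395 (21.4%) had passed day 0, 205 (11.1%) were further from it than on day 8 and 481 (26.1%) were still DE between day 24 and day 0. Of the risers, 307 (20.5%) had passed day 0, 163 (10.9%) were further away and 327 (21.9%) were still DE. The part-way position thus held most mRNAs that were DE between day 8 and day 0, 67.5% of the fallers and 68.6% of the risers. Over all tested mRNAs, 13.5% were DE between day 24 and day 0. The same day 0 libraries entered the choice of fallers and risers, so their shares still DE are not a free comparison with it. The sequencing statistics also place day 24 beside day 0 and day 16 beside day 8. Storage time and sequencing therefore cannot be told apart in this return.

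The lncRNAs gave similar medians with a wider spread. Of 499 lncRNAs DE between day 8 and day 0 (49.8%), the 330 that had fallen (32.9% of those tested) had undone a median of 0.526, 0.566 and 0.962 in the 3 day 24 libraries, and the 169 that had risen (16.9%) 0.632, 0.690 and 0.835. Replicate 3 was the highest in both sets and reached the day 0 range (0.910 to 1.08) in the first. On means, the medians were 0.589 and 0.698, and without day 24 replicate 3 they were 0.493 and 0.662. On day 16 they were between −0.025 and 0.099 in every library. Over the 231 fallers listed above 0 in at least 1 day 8 library, the median on means was 0.773.

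**Figure D3:**
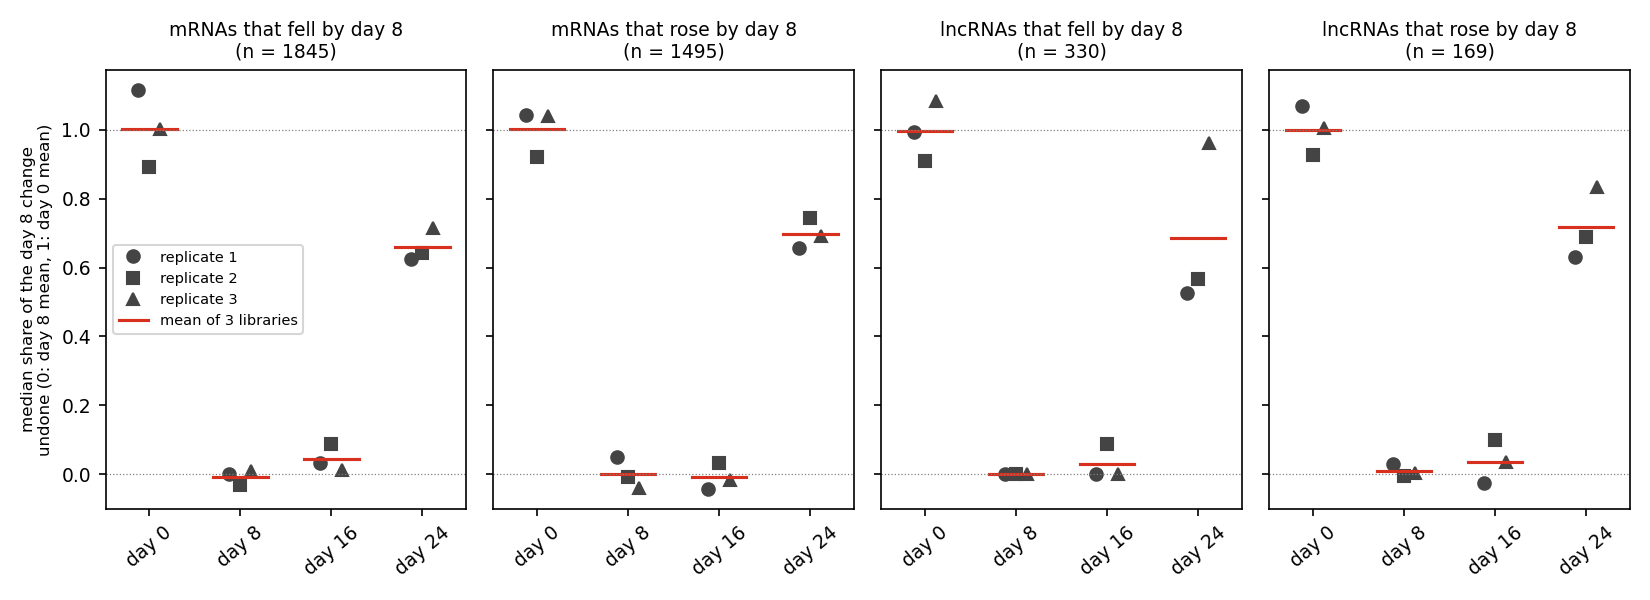
Median share of the day 8 change that was undone, for mRNAs and lncRNAs that fell or rose by day 8, in each library of days 0, 8, 16 and 24; symbols are the 3 replicates, red lines their means, and dotted lines mark the day 8 mean (0) and the day 0 mean (1). The mRNA medians of day 24 lie between 0.625 and 0.743, and those of day 16 between −0.042 and 0.086.

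In 3 of the 5 largest rises among mRNAs the day 24 libraries overlapped those of day 0. EVM0003636 had 614, 398 and 518 FPKM on day 24, against 1.10, 0.752 and 2.56 on day 8 (log2 change 7.74 ± 0.28 SE, limma adjusted p = 1e-07). Its day 0 libraries had 403, 386 and 265 FPKM and overlapped day 24, which was 0.54 above day 0 on the log2 scale. EVM0008039 behaved alike, with 602, 480.4 and 442 FPKM on day 24, against 5.91, 4.82 and 11.1 on day 8 and 635, 239 and 342 on day 0. EVM0009632 had 2696, 844 and 755 FPKM on day 24, against 4.04, 2.87 and 40.4 on day 8, and was 1.08 above day 0 without being DE against it.

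EVM0011285 was uncertain on day 8, where it was listed at 0 in 2 libraries and at 64.8 FPKM in replicate 3, against 440.1, 587 and 348 FPKM on day 24. EVM0007112 was low on both day 8 and day 0 and high on day 24, with 2495, 580.1 and 1938 FPKM, against 4.70, 1.54 and 131 on day 8 and 31.5, 5.32 and 2.23 on day 0. In both of these, and in EVM0009632, replicate 3 was the highest day 8 library and the nearest to day 24.

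The largest falls included the most abundant of the mRNAs that were lower on day 24. EVM0006046 had 1044, 666 and 911 FPKM on day 24, against 20444, 41469 and 41166 on day 8 (log2 change −5.25 ± 0.70 SE, limma adjusted p = 0.00018), and its day 0 libraries had 1038, 1346 and 382. With EVM0012259 it made up 0.227%, 0.0792% and 0.223% of all mRNA FPKM in the day 24 libraries, against 6.41%, 13.3% and 9.39% in the day 8 libraries. The fall of EVM0006046 thus undid 98.5% of its day 8 rise. EVM0008318 followed it at a lower level, with 502, 326 and 414 FPKM on day 24, against 7085, 13975 and 12504 on day 8 and 375, 498 and 189 on day 0.

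EVM0012259 itself was measured poorly outside the high libraries. It was listed at 1070.0, 0 and 1053 FPKM on day 24, against 21628, 53642 and 42338 on day 8, and at 0, 1634 and 0 on day 0. Its log2 change of −8.46 ± 2.93 SE had a limma adjusted p of 0.039, which became 0.073, 0.098 and 0.073 without day 8 replicate 1, 2 and 3, 0.053 without any 1 of the day 16 libraries, 0.151 without day 24 replicate 2 (log2 change −5.11), 0.07 with a pseudocount of 0.1 and 0.064 with a replicate block. EVM0009353 and EVM0008604 were lower still, listed at 0 in day 24 replicates 1 and 2 and at 5.001 and 5.81 FPKM in replicate 3. On day 8, EVM0009353 had 13.7, 46.2 and 82.9 FPKM and EVM0008604 had 14.1, 44.7 and 70.4.

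Some mRNAs had come only part of the way and differed from day 0 on both days. EVM0007091 had 59.3, 78.9 and 54.4 FPKM on day 24, against 2.74, 2.40 and 2.13 on day 8 and 148, 159 and 90.2 on day 0, so 80.8% of its loss was undone. EVM0002133 had 857, 819 and 624 FPKM on day 24, against 49.2, 46.3 and 111 on day 8, and was still 1.53 below day 0 on the log2 scale. The day 24 libraries of both lay above every day 8 library and below every day 0 library.

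Falling mRNAs of this kind were EVM0012268 and EVM0008739. EVM0012268 had 16.8, 12.2 and 21.5 FPKM on day 24, against 98.6, 108 and 159 on day 8, having undone 71.0% of its rise and remaining 1.14 above day 0. EVM0008739 had 47.4, 28.3 and 33.7 FPKM on day 24, against 99.7, 101 and 274 on day 8, and remained 1.29 above day 0.

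Others went beyond the day 0 level. EVM0005001 had 923, 837 and 867 FPKM on day 24, against 18.7, 8.24 and 52.2 on day 8 (log2 change 5.36 ± 0.62 SE, limma adjusted p = 7.7e-05) and 58.5, 239.8 and 50.4 on day 0, an excess of 3.28 over the day 0 mean. EVM0007846 had 718, 446 and 780.1 FPKM on day 24, against 13.4, 7.77 and 31.6 on day 8, and stood 1.44 above day 0. Neither overlapped its day 0 libraries. Below day 0, EVM0005280 had 19.9, 18.5 and 9.98 FPKM on day 24, against 298, 496 and 179 on day 8, and was 2.59 lower than on day 0 (log2 difference −2.59). EVM0009405 had 29.5, 57.1 and 53.7 FPKM on day 24, against 1023, 1329 and 326 on day 8 and 111, 1778 and 309 on day 0, with a day 24 minus day 0 difference of −3.11. Its day 8 minus day 0 difference of 0.95 was not DE (limma adjusted p = 0.382). A departure from day 0 that was then crossed is therefore not established for EVM0009405.

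The mRNAs that moved away from day 0 included the most abundant ones that were higher on day 24. EVM0011517 had 18122, 11474 and 19252 FPKM on day 24, against 2031, 793 and 8044 on day 8, and EVM0000336 had 17414, 9389.7 and 17076, against 654, 166 and 6239.7. They were 3.94 and 6.05 above day 0 on the log2 scale, and replicate 3 was again the highest day 8 library. The limma adjusted p of EVM0011517 was 0.021, and 0.063, 0.096, 0.059 and 0.071 without day 8 replicate 1, day 8 replicate 2, day 24 replicate 1 and day 24 replicate 3. It was 0.054 with only days 24 and 8 in the fit.

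EVM0009475 was higher on day 24 than on day 8 and on day 8 than on day 0, with 0.822, 1.21 and 1.01 FPKM on day 0, 22.9, 6.18 and 483 on day 8, 979, 183 and 604 on day 16 and 1955, 1257 and 1729 on day 24. It lay 9.66 above day 0 on day 24 and 4.44 above it on day 8, in log2 units, while its change of 1.76 between day 24 and day 16 was not DE (limma adjusted p = 0.276). EVM0011786 fell to 8.27, 6.11 and 7.59 FPKM on day 24, against 51.5, 203 and 78.9 on day 8, with a day 24 minus day 0 difference of −5.11. Its change of −1.49 between day 24 and day 16 was not DE (limma adjusted p = 0.081). EVM0005728 had 43.4, 9.69 and 15.5 FPKM on day 24, against 213, 649.5 and 50.8 on day 8 (limma adjusted p = 0.019). That call was lost without day 8 replicate 1 (0.053), day 8 replicate 2 (0.084), day 24 replicate 2 (0.073) and day 24 replicate 3 (0.058).

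**Figure D4:**
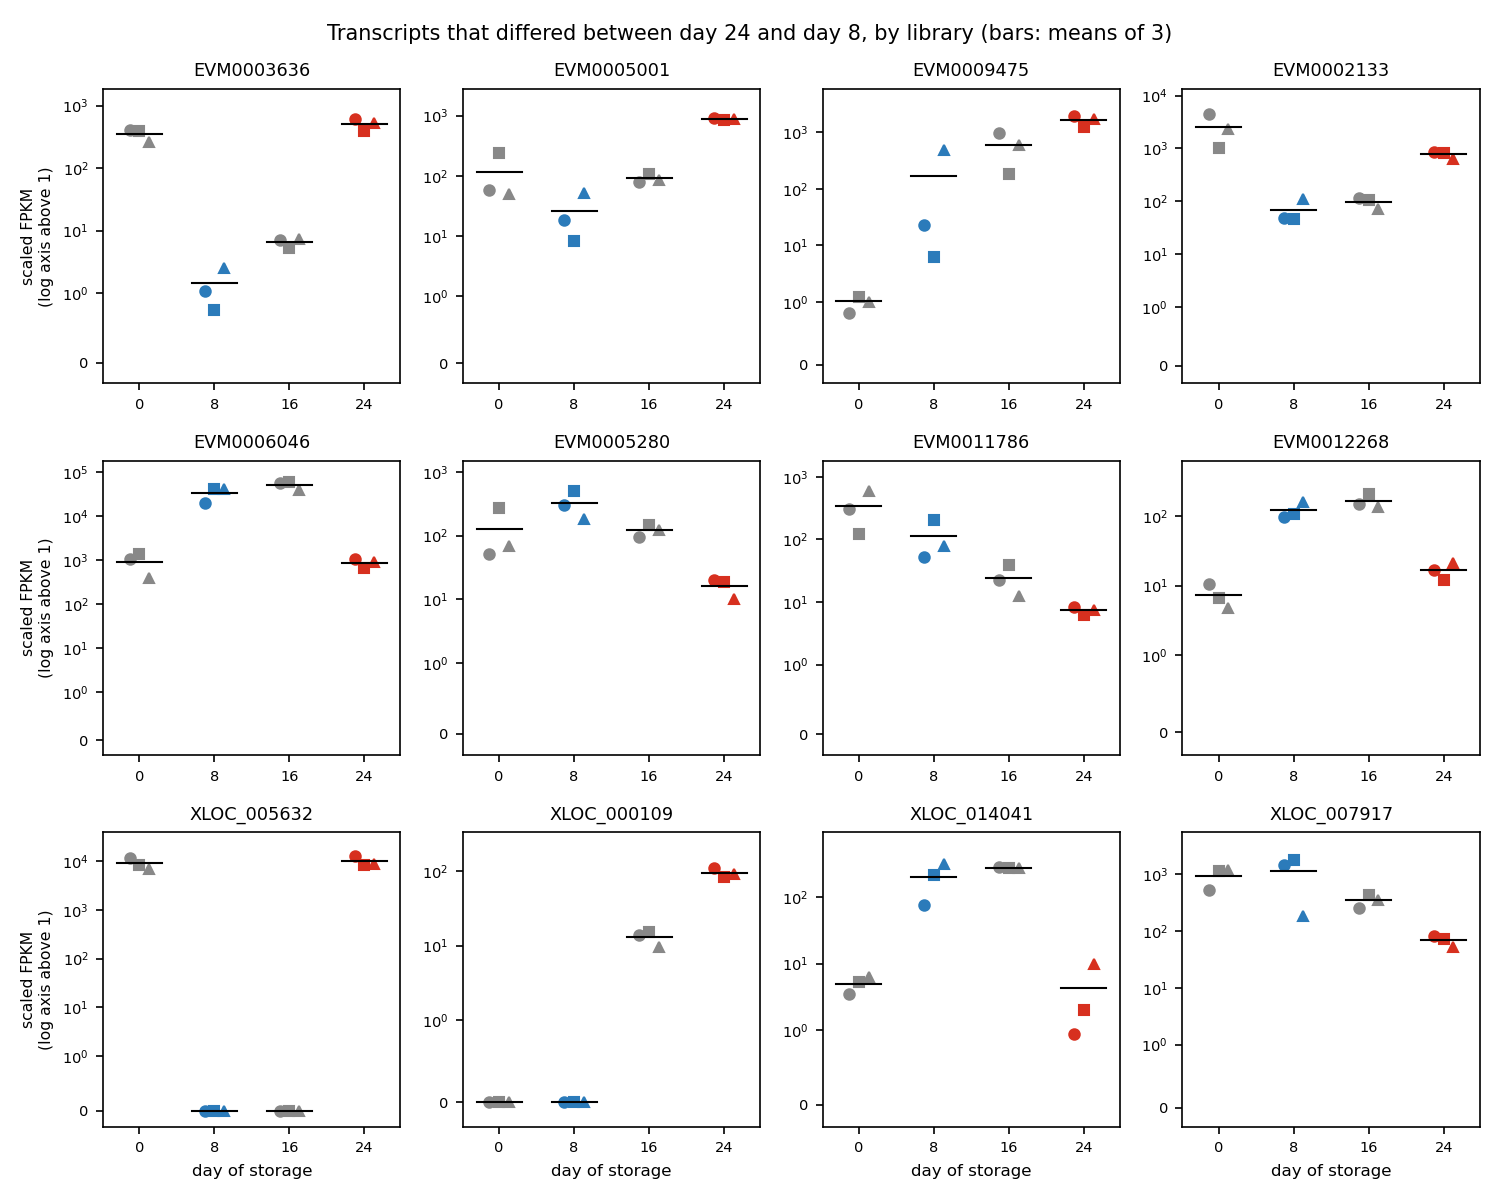
Scaled FPKM (log axis above 1, linear below) in each library on days 0, 8, 16 and 24 for 8 mRNAs and 4 lncRNAs DE between day 24 (red) and day 8 (blue); circles, squares and triangles are replicates 1, 2 and 3 and bars are means of 3. EVM0003636, EVM0006046 and XLOC_005632 overlap their day 0 libraries on day 24, while EVM0009475, EVM0011786, XLOC_000109 and XLOC_007917 are further from it than on day 8.

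Among lncRNAs, XLOC_005632 was listed at 0 in all day 8 and all day 16 libraries. It had 12825, 8420.1 and 8668 FPKM on day 24 and 11635, 8345 and 6793 on day 0, so day 24 and day 0 overlapped and no fold against day 8 is given. XLOC_002341 had 36774, 27720.2 and 23136 FPKM on day 24, against 95.8, 20.0 and 466 on day 8 (log2 change 8.19 ± 1.78 SE, limma adjusted p = 0.0035), again overlapping day 0. XLOC_000570 and XLOC_000109 were listed at 0 on day 8 and lay above day 0 on day 24. XLOC_000570 had 125, 97.2 and 108 FPKM on day 24 and 8.07, 7.44 and 0 on day 0, and XLOC_000109 had 112, 84.2 and 92.7 on day 24 and 0 in every day 0 library, with 14.1, 15.0 and 9.51 on day 16.

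The 27 DE lncRNAs at 0 in every day 8 library differed in how far the day 24 libraries agreed. In 9 of them day 24 replicate 3 was more than 5 times both other day 24 libraries. XLOC_002676, chosen after its values were seen, had 12.3, 1.72 and 229 FPKM on day 24 and 142, 191 and 353 on day 0. Of the 1945 mRNAs at 0 in every day 8 library, 454, 134 and 1671 were above 0 in day 24 replicates 1, 2 and 3, and of the 109 such lncRNAs 62, 38 and 106, so reappearance of unlisted transcripts was mainly a feature of replicate 3. Of those mRNAs 144 passed the filter, and 5 of these (3.47%) were DE, where 12.9% of all tested mRNAs were higher. At 0 on day 8 they could only be called higher, and they passed the filter through other days, so this is not a free comparison. The 5 were EVM0007778, with 44.95, 44.95 and 46.1 FPKM on day 24 and 88.0, 36.5 and 71.8 on day 0, and EVM0010553, EVM0008069, EVM0004177 and EVM0002071, all 5 chosen after their values were seen.

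The 3 largest lncRNA falls went past the day 0 mean. XLOC_014041 had 0.949, 1.99 and 9.82 FPKM on day 24, against 74.8, 211 and 307 on day 8 (log2 change −5.42 ± 0.60 SE, limma adjusted p = 7.5e-05). XLOC_014038 had 0.775, 0 and 6.19, against 20.4, 73.1 and 264, and XLOC_013079 had 2.91, 0.218 and 31.7, against 139, 191 and 541. Replicate 3 was the highest library of both days, and only through it did day 24 overlap day 0, since day 24 replicates 1 and 2 lay below every day 0 library in all 3. The day 24 minus day 0 differences were −0.57, −1.38 and −2.45 for XLOC_014041, XLOC_014038 and XLOC_013079, and none was DE.

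XLOC_013075 and XLOC_008921 were the most abundant lncRNAs that were lower on day 24. XLOC_013075 had 2418, 2013 and 1761 FPKM on day 24, against 12261, 21296 and 33665 on day 8, and undid 97.2% of its day 8 rise. XLOC_008921 had 7899, 2769 and 2740.4 FPKM, against 8678, 28251 and 29263, where day 24 replicate 1 nearly met day 8 replicate 1. Its limma adjusted p of 0.015 became 0.057, 0.052 and 0.068 without day 8 replicate 2, day 24 replicate 2 and day 24 replicate 3, and 0.125 without the 3 libraries that stood apart (day 0 replicate 2, day 8 replicate 3 and day 24 replicate 3).

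XLOC_004793 went below day 0, with 28.2, 21.2 and 22.0 FPKM on day 24, against 163, 148 and 91.9 on day 8, and a day 24 minus day 0 difference of −1.84. Its day 8 minus day 0 difference of 0.57 was not DE. XLOC_007917 moved away, with 80.3, 72.7 and 52.1 FPKM on day 24, against 1445, 1788 and 181 on day 8, and a difference from day 0 of −3.68. Their day 24 libraries overlapped neither day 8 nor day 0.

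The mRNAs that the study names by product were chosen from these samples for differing from day 0 on all stored days, so their distance from day 0 is not independent evidence. Of the 6 ergosterol mRNAs, 0 were DE between day 24 and day 8 by limma, against 23.6% of all tested mRNAs, and 1, ERG25, had an unadjusted p under 0.05, against 47.7%. ERG25, a C-4 methylsterol oxidase in yeast, had 101, 119 and 142 FPKM on day 24, against 67.4, 71.3 and 74.7 on day 8 and 662, 231 and 614 on day 0 (log2 change since day 8 0.74 ± 0.33 SE, limma adjusted p = 0.099). Its day 24 libraries all lay above day 8 and below day 0. EVM0004880, whose enzyme is not named here, was the other ergosterol mRNA without overlap, with 25.9, 30.9 and 26.4 FPKM on day 24, against 48.7, 38.7 and 47.3 on day 8. These 2 of 6 (33.3%) compare with 53.5% of all tested mRNAs without overlap in either direction.

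ERG13, the hydroxymethylglutaryl-CoA synthase of yeast, had 56.8, 35.1 and 56.0 FPKM on day 24, against 47.7, 57.5 and 75.7 on day 8. ERG3, a C-5 sterol desaturase, had 23.7, 19.1 and 41.7, against 21.4, 16.3 and 23.0, and ERG4, a C-24(28) sterol reductase that completes ergosterol, had 22.0, 15.4 and 20.2, against 29.9, 32.5 and 16.7. EVM0000659, also without a named enzyme, had 43.0, 52.8 and 44.4 FPKM on day 24, against 60.2, 73.3 and 50.9 on day 8. The day 24 and day 8 libraries of these 4 overlapped. The median change of the 6 was −0.34, their median day 24 minus day 0 difference was −2.23, and all 6 were still DE below day 0.

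The fermentation pair separated. ADH1 (EVM0007108), alcohol dehydrogenase, which reduces acetaldehyde to ethanol, had 4841, 2436 and 2873 FPKM on day 24, against 788, 527 and 1642 on day 8, and moved further from day 0 (29.1, 247 and 49.0). PDC (EVM0009327), pyruvate decarboxylase, which supplies that acetaldehyde, had 226, 309 and 333 FPKM on day 24, against 1002, 710.5 and 561 on day 8, undoing 41.6% of its day 8 rise. The ratio of ADH1 to PDC was 21.4, 7.88 and 8.63 in the day 24 libraries, against 0.786, 0.742 and 2.93 in the day 8 libraries (mean log2 difference 3.24). ADH1 lay wholly above day 8 and PDC wholly below it, so the ratios could not overlap. Their two-sided exact permutation p of 0.1, the smallest possible with 3 against 3, was thereby fixed and adds no evidence. On day 16 the ratio was already 3.88, 8.99 and 3.52, above every day 8 library and overlapping day 24, and ADH1 averaged 3384 FPKM on day 24 and 3323 on day 16.

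Each call on its own was narrow. The ADH1 change of 1.88 ± 0.69 SE had a limma adjusted p of 0.049, which rose to 0.116 and 0.165 without day 8 replicates 1 and 2, 0.147, 0.07 and 0.091 without day 24 replicates 1, 2 and 3, 0.058 without day 0 replicate 3, and 0.065, 0.063 and 0.064 without day 16 replicates 1, 2 and 3. It was 0.062 with no filter, 0.12 with quantile normalization (log2 change 1.26) and 0.072 with a replicate block. The PDC change of −1.36 ± 0.43 SE had a limma adjusted p of 0.026, and 0.095, 0.06, 0.091 and 0.055 without day 8 replicate 1, day 8 replicate 2, day 24 replicate 1 and day 24 replicate 2.

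The other energy mRNAs were not DE between day 24 and day 8, where 23.6% of all tested mRNAs were. PK (EVM0009831), pyruvate kinase of glycolysis, had 4427, 2772 and 4435 FPKM on day 24, against 3147, 2931 and 2939 on day 8. FDH (EVM0012176), formate dehydrogenase, had 565, 668 and 423, against 377, 159 and 1152, and GPDH (EVM0008918), glycerol-3-phosphate dehydrogenase, had 39.6, 33.1 and 31.8, against 32.3, 28.7 and 85.3. All 3 stayed DE above day 0. In FDH and GPDH, day 8 replicate 3 was the highest of the 6 libraries, and without it the GPDH difference was 0.18 in place of −0.30. FDH was DE, with a change of 1.32 in place of 0.40 (limma adjusted p = 0.017), without the 3 libraries that stood apart.

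Neither of the 2 antioxidant mRNAs was DE, where 23.6% of all tested mRNAs were. CAT (EVM0011998), catalase, which breaks down hydrogen peroxide, had 105, 24.4 and 47.0 FPKM on day 24, against 39.1, 31.5 and 201 on day 8. GST2 (EVM0000573), a glutathione transferase, had 41.5, 38.1 and 51.2 FPKM on day 24, against 17.7, 23.8 and 21.5 on day 8. The GST2 groups did not overlap and its change of 1.02 ± 0.48 SE reached the fold threshold but not the limma threshold (adjusted p = 0.12). It passed with only days 24 and 8 in the fit and without day 0 replicate 2 or 3 (adjusted p 0.006, 0.029 and 0.039), and lay 2.97 below day 0 (log2 difference −2.97). GST2 had 340, 798 and 152 FPKM on day 0 and was DE below day 0 on both day 8 and day 24. The study instead describes a raised level of GST2 throughout storage.

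**Figure D5:**
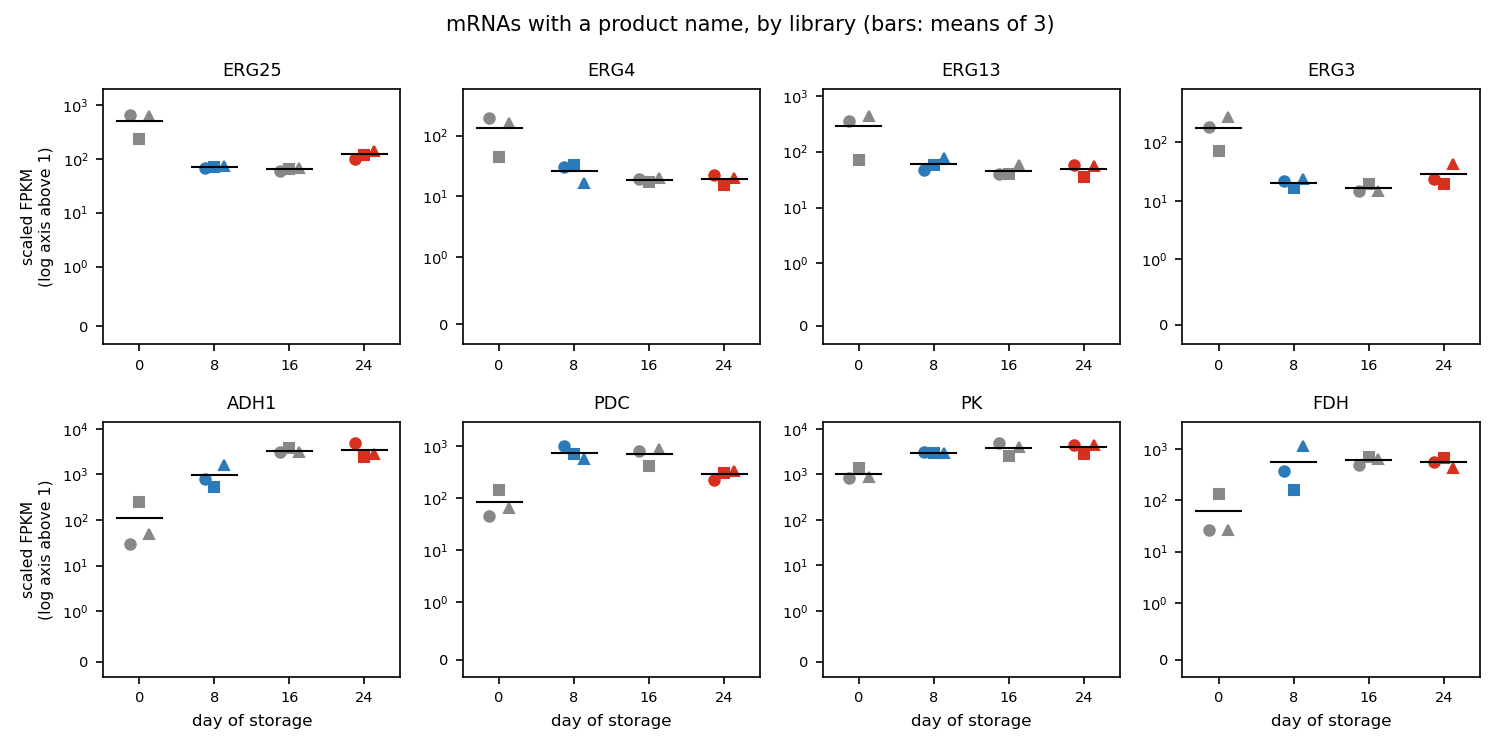
Scaled FPKM (log axis above 1, linear below) of 8 mRNAs named by product in each library of days 0, 8, 16 and 24; red symbols are day 24, blue symbols day 8, shapes mark replicates 1, 2 and 3, and bars are means of 3. The 4 ergosterol mRNAs stay low on day 24, ADH1 is at 2436 to 4841 FPKM on day 24 and 527 to 1642 on day 8, and PDC is at 226 to 333 on day 24 and 561 to 1002 on day 8.

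Of the 6 mRNAs chosen for qPCR, ERG25 among them, EVM0001829 fell between day 8 and day 24 (log2 change −1.21 ± 0.17 SE, limma adjusted p = 0.00027), to 47.9, 39.5 and 40.7 FPKM, against 97.2, 82.0 and 124 on day 8. It stood 1.42 above day 0. It alone of the 6 was DE, where 10.7% of all tested mRNAs were DE and lower. EVM0005628 had 70.6, 88.8 and 77.2 FPKM on day 24, against 49.8, 46.0 and 34.0, a change of 0.86 that was under the fold threshold (limma adjusted p = 0.016). EVM0006666, EVM0006175 and EVM0013078 had changes of −0.45, −0.50 and −0.80 and were not DE. EVM0013078 passed without day 8 replicate 3 (−1.20, limma adjusted p = 0.026).

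Of the 6 lncRNAs chosen for qPCR, XLOC_004061 and XLOC_003506 fell, where 13.6% of all tested lncRNAs were lower. XLOC_004061 had 414, 372 and 268 FPKM on day 24, against 982, 1328 and 1264 on day 8, with 44.0% of its rise undone. XLOC_003506 moved further below day 0, with 3.44, 3.76 and 5.09 FPKM on day 24, against 10.8, 13.8 and 21.0 on day 8 (limma adjusted p = 0.025). That call was lost without day 8 replicate 2 (0.059), day 8 replicate 3 (0.07), day 24 replicate 1 (0.068), day 24 replicate 2 (0.055) and without the 3 libraries that stood apart (0.107). XLOC_011327 had a change of −0.94, just under the fold threshold, and passed without day 8 replicate 1 (−1.02) or day 24 replicate 2 (−1.06). XLOC_002934 had 7.02, 10.5 and 8.85 FPKM on day 24, against 10.4, 19.0 and 7.24 on day 8, and was not DE (−0.35), but with quantile normalization it was (−1.86, limma adjusted p = 0.033).

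XLOC_002861, which the study pairs in cis with FDH, had 27662, 8205 and 16499 FPKM on day 24, against 4302, 3461 and 14006 on day 8, and XLOC_008354 had 3552, 1448 and 2905, against 682, 492 and 2817. They were the remaining lncRNAs of the qPCR set. Neither was DE (changes of 1.39 and 1.33, limma adjusted p = 0.082 and 0.072). Without day 8 replicate 3 both were, with changes of 2.01 and 2.09 (adjusted p 0.01 and 0.001), and without day 24 replicate 2 likewise, with 1.85 and 1.71 (adjusted p 0.039 in each). Both also passed with factors from the lncRNAs (adjusted p 0.0497 and 0.045) and without the 3 libraries that stood apart (0.033 and 0.007), and XLOC_008354 with a replicate block (0.046). The other cis lncRNA, XLOC_002302, had 66.3, 53.8 and 48.3 FPKM on day 24, against 145, 144 and 48.2 on day 8, and was not DE.

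XLOC_003962 and XLOC_008798, a pair named in the study for taking opposite directions during storage, both rose. XLOC_003962 had 612, 494 and 442 FPKM on day 24, against 49.1, 19.1 and 73.2 on day 8 (log2 change 3.60 ± 0.42 SE, limma adjusted p = 9.2e-05) and 325, 164 and 269 on day 0. XLOC_008798 had 47.6, 22.2 and 28.0 FPKM, against 3.41, 1.95 and 2.22 on day 8 and 9.01, 10.02 and 15.4 on day 0. Their day 24 libraries lay above all day 0 libraries, by 1.07 and 1.39 on the log2 scale of means. Neither was DE between day 24 and day 0 by limma, whereas the study, using DESeq2, called both.

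The study assigns 61 lncRNAs in trans to these mRNAs, by correlation of their expression, so that a lncRNA moving with its mRNA is partly a matter of choice. Between day 24 and day 8, 8 of the 61 were higher (13.1%), 4 lower (6.56%) and 49 not DE, shares below the 23.2% and 13.6% of all tested lncRNAs, with a median change of 0.25, against 0.29 over all tested lncRNAs. With quantile normalization the counts were 4 higher and 7 lower. All 3 lncRNAs assigned to PDC were lower on day 24, namely XLOC_010553 (603, 434 and 394 FPKM on day 24, against 982, 976 and 1150.3 on day 8), XLOC_006906 and XLOC_002973, and they had undone 45.7%, 38.2% and 51.9% of their day 8 rise. XLOC_007904, assigned to GPDH, was the other lower one. The changes of these 3 stayed negative under each scaling, with 2 of them DE under quantile normalization and 1 under factors from the lncRNAs, and leaving out 1 library left between 1 and 3 DE.

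Of the 6 lncRNAs assigned to ADH1, all had positive changes (median 0.92), also under each other scaling, and XLOC_012207 rose, with 65.2, 41.1 and 39.4 FPKM on day 24, against 11.6, 11.1 and 35.3 on day 8. That call was lost with quantile normalization. With 1 library left out, the number DE in this group was between 0 and 4. Of the 32 lncRNAs assigned to ergosterol mRNAs, 6 rose (XLOC_011266, XLOC_011365, XLOC_003510, XLOC_007245, XLOC_011225 and XLOC_003562) and 0 fell by limma, with 11 at an unadjusted p under 0.05. These shares of 18.8% and 34.4% were below the 23.2% higher and the 49.7% at an unadjusted p under 0.05 among all tested lncRNAs. This direction depended on scaling, since with quantile normalization 4 rose and 3 fell and the median change was −0.04 in place of 0.34. XLOC_003510, the most abundant of the 6 that rose, had 783, 1403 and 489 FPKM on day 24, against 297, 186 and 157 on day 8 and 6070.2, 1137 and 3255 on day 0. These 6 had undone between 50.2% and 75.2% of their day 8 fall. XLOC_006160, assigned to GST2, was the eighth lncRNA that rose.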

How the data were processed

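Total RNA of 12 fruiting-body samples (3 each from days 0, 8, 16 and 24, mapped to their columns by name) was depleted of ribosomal RNA and made into strand-preserving libraries. Per the labels and methods, the authors used cutadapt 2.7 for trimming, FastQC 0.11.8 for quality control, HISAT2 2.1.0 for alignment and StringTie 1.3.3b for abundance, and the deposited values are FPKM. Use of strand in that step is not stated, so antisense and overlapping lncRNAs cannot be separated from their mRNAs with certainty, and near-identical gene copies were not checked. The study gives clean reads and aligned shares per library, but no counts per transcript were used. No counting interval or detection limit is therefore given.

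Library factors (median of ratios over the mRNAs above 0 in all 12 libraries) were applied to FPKM, weak transcripts were removed, and the rest was tested with limma 3.58.1 (R 4.3.3, mean-variance trend, Benjamini-Hochberg within each class), with figures and summaries in Python 3.11.15. The DESeq2 test of the authors needs counts and was not repeated. The fit was checked on simulated data. Named transcripts were those the study names by product, qPCR, cis pairing or a change of direction during storage, and, among DE transcripts without overlap and with a mean of at least 10 FPKM, the largest changes, the largest in each position and the most abundant ones. The comparison, its members and the lists were chosen with earlier results of these data known. Alternative fits changed 1 choice at a time: each library was left out in turn, the pseudocount was set to 0.1, the filter was dropped or raised to a mean of 5 FPKM, scaling was dropped, replaced by quantile normalization or based on lncRNAs, the fit was limited to the days compared, a replicate block was added, and the trend was dropped. After the data were seen, leaving out 3 libraries that stood apart and restricting the shares to transcripts above 0 on day 8 were added. None of the gene identifiers matched the reference gene table, so no coordinates or sequences are given.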

Additional observations from a re-analysis of the deposited data

How the results depend on the processing

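DE mRNAs numbered 2174 to 2994 and DE lncRNAs 272 to 394 with 1 library left out, and no transcript called in both fits changed direction under any alternative. With 1 library left out, mRNAs higher on day 24 numbered 1167 to 1669 and lower ones 1007 to 1325, and lncRNAs 167 to 242 and 105 to 152. Positions of mRNAs were short of day 0 in 816 to 1037, past it in 1205 to 1758 and away from it in 137 (without day 8 replicate 2) to 301. For lncRNAs they were 89 to 147, 171 to 245 and 9 to 29, where away from day 0 was 9 without day 8 replicate 1, 12 without day 8 replicate 2, 11 without day 24 replicate 1 and 12 without day 24 replicate 3. The median share undone was 0.530 (without day 0 replicate 2) to 0.746 for mRNAs that fell, 0.598 to 0.764 for mRNAs that rose, 0.493 to 0.710 for lncRNAs that fell and 0.657 to 0.765 for lncRNAs that rose. With a mean FPKM of at least 5 the share of mRNAs that fell was 0.723. Quantile normalization gave 128 higher and 140 lower lncRNAs, 79 short of day 0, and a share of 0.543 for lncRNAs that rose, and the cause was not tested. Without the 3 libraries that stood apart, 3208 mRNAs were DE, 374 of them away from day 0, and 355 lncRNAs. Replicate numbers did not pair the samples (correlations of same-numbered deviations −0.371, 0.0926 and −0.0339), and the replicate block gave 2584 mRNAs and 370 lncRNAs.

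Of 62 named transcripts, 7 lost a call under some alternative, 7 gained one and 5, none of them DE in the fit reported, changed sign. The 5 were EVM0012176 (−0.00923 with quantile normalization, −0.28 to 1.14 with 1 library left out, the lowest without day 8 replicate 2, and DE at 1.32 without the 3 libraries), EVM0009831 (−0.41 with quantile normalization), XLOC_002934 (−0.64 to 0.000978 with 1 library left out, the highest without day 8 replicate 2, and DE at −1.86 with quantile normalization), EVM0008918 (−0.59 to 0.18, the highest without day 8 replicate 3, and 0.24 without the 3 libraries) and EVM0011998 (−0.88 to 0.48, the highest without day 8 replicate 3, 0.15 without day 24 replicate 2 and 0.52 without the 3 libraries). Without counts, values listed at 0 have no known limit.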
